A study of Mus musculus with 14 samples.

Results

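Mast cells and basophils are rare granulocytes with a small set of products that few other cells make, and 10 genes of this set were followed here across the spleens and ovaries of mice without the RNA-binding protein ZFP36L2. The 10 genes were *Cma1*, *Mcpt4*, *Tpsb2*, *Tpsab1* and *Cpa3* (mast cell proteases), *Mcpt8* and *Prss34* (basophil proteases), *Ms4a2* and *Fcer1a* (subunits of the IgE receptor) and *Hdc* (the enzyme that makes histamine). They were chosen by name, and the set was chosen because *Cma1*, *Tpsab1* and *Tpsb2* were higher in L2-fKO spleen, so the spleen values of all 10 genes are a description, and the limits of the study that some of them pass there are given as such and not as a test. All 10 were among the 49315 genes of the spleen count table and passed its filter on low counts. In the ovary table, which holds 18603 genes, 8 of the 10 were listed and all 8 passed the filter, and *Mcpt8* and *Fcer1a* were not in that table.

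The libraries were made from poly(A) RNA of 4 wild-type and 4 L2-fKO spleens and of 3 wild-type and 3 L2-fKO ovaries, 1 animal per library, except that 1 L2-fKO animal gave both L2-fKO spleen 3 and L2-fKO ovary 1. L2-fKO mice, named L2-cKO in the sample labels, carried recombined *Zfp36l2* alleles without the floxed exon and the CMV-Cre transgene (Zfp36l2-/-;CMV-Cre), and the wild-type controls kept both *Zfp36l2* copies and also carried CMV-Cre. The CMV promoter drives Cre in all tissues from early embryonic life, so the loss was not limited to mast cells or basophils, and the line is not viable beyond early postnatal life. The labels do not give the ages of the animals, whose pairs were matched for age in the study. Wild-type spleens 1 and 3 and L2-fKO spleen 3 were from females, the other 5 spleens were from males, and all ovaries were necessarily from females. The labels name the spleen source a spleen organoid, whereas the study describes dissected spleens. Erythroid markers summed to 8395 to 15028 CPM (reads scaled to library size) in the spleens, and oocyte markers summed to 2807 to 3446 in the ovaries.

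Mast cells settle in tissues, mature there under the KIT receptor and its ligand, and store proteases bound to heparin in their granules: chymases such as CMA1 and MCPT4, tryptases such as those encoded by *Tpsb2* and *Tpsab1*, and the carboxypeptidase CPA3. Basophils circulate in blood, are short-lived, and in the mouse are marked by the proteases MCPT8 and PRSS34. Both cell types display the high-affinity IgE receptor, whose crosslinking by antigen releases the granules, and both make histamine. ZFP36L2 binds AU-rich elements in 3′UTRs of mRNAs and promotes their decay.

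The libraries held 39138010 to 45167464 reads on genes in the spleen and 31052510 to 44270070 in the ovary. *Zfp36l2* itself had normalized counts of 4362 to 7394 in wild-type and 278 to 405 in L2-fKO spleens, so 5.91% of the wild-type mean was left. In the ovary it had 4745 to 4906 in wild type and 758 to 1011 in L2-fKO, with 19.1% left. These levels sort every library as labelled.

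The mast cell proteases were high in the L2-fKO spleens and the basophil proteases were not. *Cma1*, a chymase, had normalized counts of 57.5, 267, 344 and 213 in wild-type spleens 1 to 4 and of 864, 1280.5, 274 and 2039.6 in L2-fKO spleens 1 to 4, where a normalized count is the read count scaled to the mean library size by the TMM method. The means were 220.3 ± 121 and 1115 ± 742 (SD, n = 4 each), a log2 fold change of 2.34 in edgeR. Of the L2-fKO spleens, 3 lay above all wild-type spleens, and L2-fKO spleen 3 lay among them, so the groups overlapped.

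*Mcpt4*, the chymase that cuts many proteins outside the cell, had 182, 689.9, 696 and 425 in wild type and 3039, 3591, 1006 and 6118 in L2-fKO, with means of 498 ± 246 and 3438 ± 2104 (SD, n = 4 each) and a log2 fold change of 2.79. Every L2-fKO spleen was above every wild-type spleen. *Tpsb2*, a tryptase, had 67.9, 335, 434 and 289 in wild type and 1986.5, 2160.0, 770.2 and 3919 in L2-fKO, and a log2 fold change of 2.97, again with no overlap. *Tpsab1*, the second tryptase, was the least abundant of the proteases, with 6.60, 9.09, 17.9 and 9.10 in wild type (7 to 18 reads) and 80.4, 95.3, 23.9 and 201 in L2-fKO (22 to 236 reads). Its groups did not overlap either, although L2-fKO spleen 3 came close to wild-type spleen 3, and its log2 fold change of 3.23 was measured against few reads. *Cpa3*, the mast cell carboxypeptidase, had 199, 257, 357 and 222 in wild type and 925, 1318, 302 and 1797 in L2-fKO, a log2 fold change of 2.07, with L2-fKO spleen 3 below wild-type spleen 3.

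The basophil proteases had overlapping levels in the 2 genotypes. *Mcpt8*, a granzyme-like protease, had 635, 518, 440.3 and 434 in wild-type spleens and 455, 802, 141 and 518 in L2-fKO spleens, with means of 507 ± 93.6 and 479 ± 271 (SD, n = 4 each) and a log2 fold change of -0.08. *Prss34*, a tryptase-like protease, had 822, 689.9, 506 and 613 in wild type and 444, 731, 163 and 553 in L2-fKO, a log2 fold change of -0.48. L2-fKO spleen 3 was the lowest of all 8 spleens for both genes, and the other 3 L2-fKO spleens lay within or near the wild-type range.

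The 2 subunits of the IgE receptor differed from each other. *Fcer1a*, which encodes the chain that holds the antibody, had 10.4, 7.07, 3.98 and 8.09 in wild type (4 to 11 reads) and 102, 67.6, 27.2 and 59.7 in L2-fKO (25 to 98 reads), a log2 fold change of 3.10 with no overlap. *Ms4a2*, which encodes the signal-amplifying chain, had 114, 75.8, 115 and 62.7 in wild type and 174, 235, 47.8 and 214 in L2-fKO, a log2 fold change of 0.87. For *Ms4a2*, 3 L2-fKO spleens were above all wild-type spleens and L2-fKO spleen 3 was below all of them. *Hdc* had 352, 382, 624 and 364 in wild type and 291, 374, 167 and 524 in L2-fKO, a log2 fold change of -0.34 with overlapping groups.

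**Figure D1:**
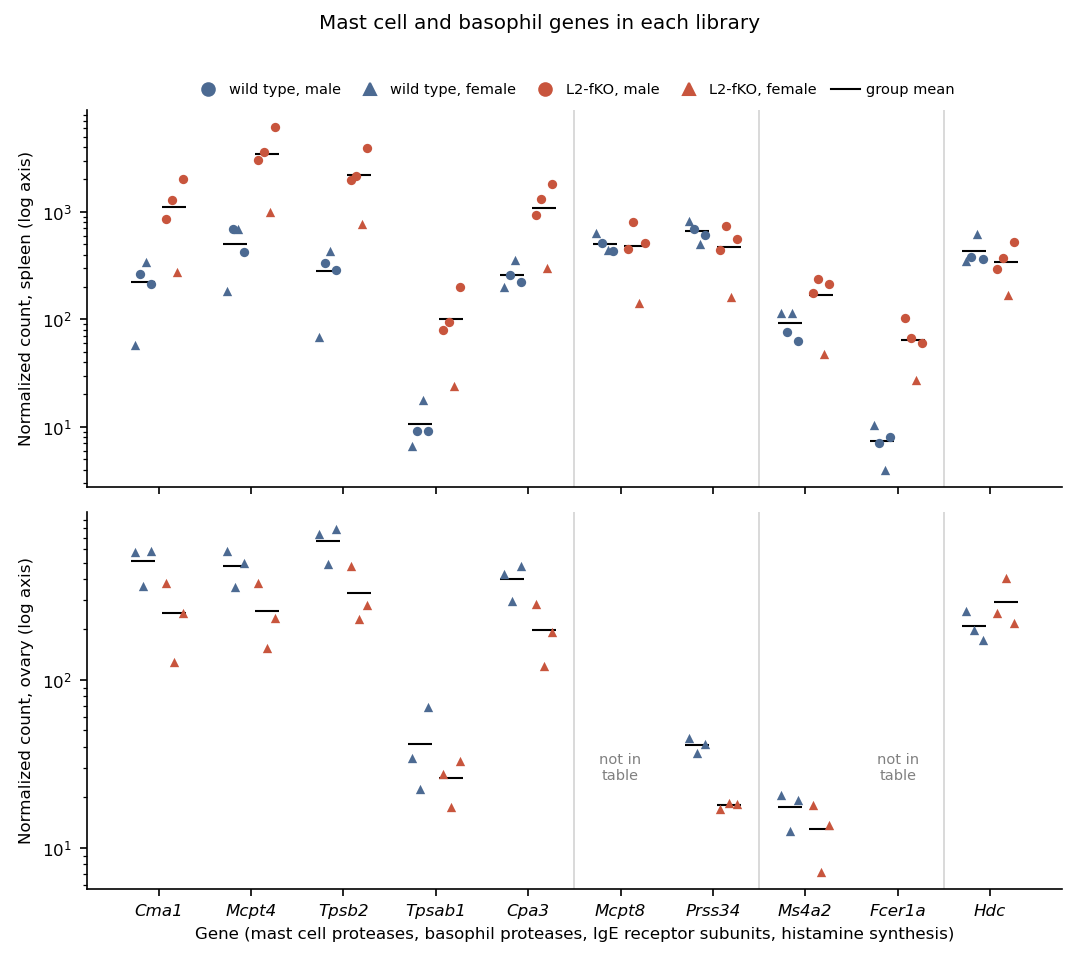
Normalized counts (log axis) of the 10 genes in each spleen library (upper panel) and ovary library (lower panel), wild type in blue and L2-fKO in red, with circles for males, triangles for females and a bar at each group mean. The 5 mast cell proteases and *Fcer1a* sit higher in L2-fKO spleens, whose only female (L2-fKO spleen 3) is the lowest L2-fKO spleen for all 10 genes, and the mast cell proteases sit lower in L2-fKO ovaries.

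By the limits used in the study (a Benjamini-Hochberg adjusted p under 0.05 with a log2 fold change beyond 1 in either direction), 6 of the 10 genes (the 5 mast cell proteases and *Fcer1a*) were past the limits upward in edgeR's quasi-likelihood fit and none downward, where 2.90% of all 16911 genes tested were past them upward and 3.11% downward. The libraries did not overlap and were higher in L2-fKO for 4 genes (*Mcpt4*, *Tpsb2*, *Tpsab1* and *Fcer1a*) and lower for none, against 9.61% and 10.8% of all genes. The median log2 fold change was 2.21 over the 10 genes and -0.02 over all genes tested. Since the genes were chosen on this contrast, these counts are read no further.

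L2-fKO spleen 3 had the lowest L2-fKO value for all 10 genes and L2-fKO spleen 4 the highest for all 5 mast cell proteases. Without L2-fKO spleen 3 the log2 fold changes of the mast cell proteases were 2.38 to 3.55, that of *Ms4a2* was 1.17 and past the limits, and that of *Mcpt8* was 0.22, against -0.08 with all libraries. Without L2-fKO spleen 4 those of the mast cell proteases were 1.72 to 2.63. *Cma1* was no longer past the limits when L2-fKO spleen 1 (log2 fold change 2.45), 2 (2.26) or 4 (1.87) or wild-type spleen 2 (2.44) or 4 (2.32) was left out, and *Cpa3* was not when wild-type spleen 2 (2.06) or 4 (2.00) was left out. *Tpsab1* and *Fcer1a* passed the filter on low counts only through the L2-fKO spleens, where they are high. In males alone the mast cell proteases had log2 fold changes of 2.49 to 3.78, and with sex as a covariate 1.74 to 2.81, where *Cma1* and *Cpa3* were not past the limits.

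To set the genes beside each other, reads were expressed as RPKM, that is, divided by exon length and by the library's reads on the genes listed in both tables. In wild-type spleens the basophil proteases led, with 12.6 ± 2.73 for *Prss34* and 11.9 ± 2.48 for *Mcpt8* (mean ± SD, n = 4), followed by *Mcpt4* at 10.5 ± 5.25, and these 3 neighbours differed by less than the larger of their SDs. *Cma1* (4.72), *Tpsb2* (4.12) and *Cpa3* (4.003) came next and also lay within each other's spread, and *Hdc* (1.58), *Ms4a2* (0.772), *Fcer1a* (0.173) and *Tpsab1* (0.120) closed the order. In L2-fKO spleens the order was led by *Mcpt4* (75.4 ± 52.0), *Tpsb2* (33.6 ± 22.6), *Cma1* (24.9 ± 18.4) and *Cpa3* (17.3 ± 11.3), with *Mcpt8* (11.4 ± 6.57) and *Prss34* (9.23 ± 4.87) behind them. In that genotype only 1 of 9 neighbouring pairs, *Prss34* and *Fcer1a* (1.51), differed by more than the larger SD.

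Summed over the 5 genes, the mast cell proteases came to 9.53, 28.7, 35.4 and 20.3 RPKM in wild-type spleens 1 to 4 and to 124, 155, 38.9 and 291 in L2-fKO spleens 1 to 4. The 2 basophil proteases together came to 31.7, 24.9, 20.7 and 20.9 in wild type and 18.7, 32.6, 5.77 and 25.5 in L2-fKO. L2-fKO spleen 3 was the lowest L2-fKO spleen on both sums. In normalized counts the ratio of the mast cell to the basophil sum was 0.352, 1.29, 1.95 and 1.11 in wild type and 7.67, 5.51, 7.81 and 13.1 in L2-fKO, with no overlap, and L2-fKO spleen 3 fell among the other L2-fKO spleens on this ratio. In bulk RNA, fewer cells of a type and less RNA per cell cannot be told apart.

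**Figure D2:**
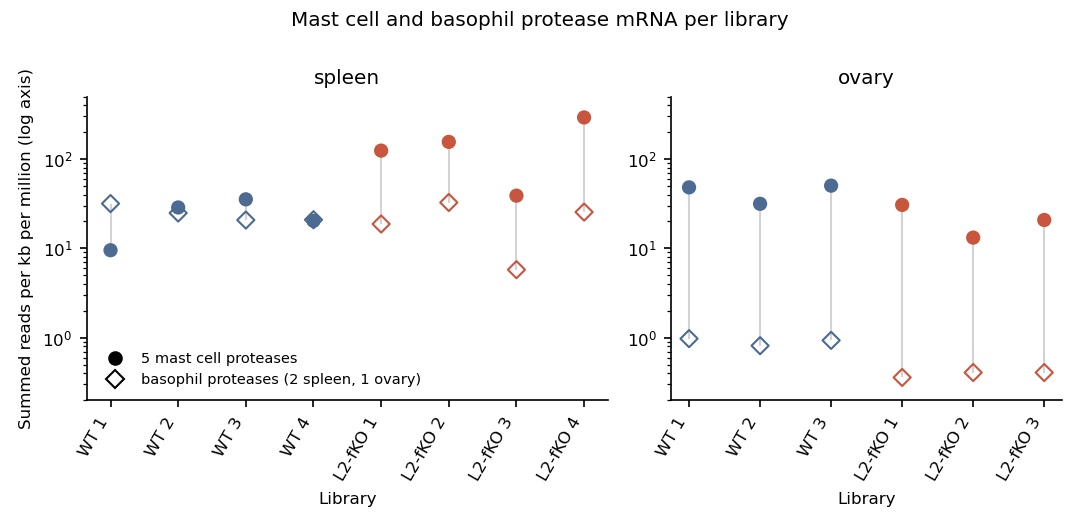
Summed level of the 5 mast cell proteases (filled circles) and of the basophil proteases (open diamonds, *Mcpt8* and *Prss34* in the spleen, *Prss34* alone in the ovary) in each library, in RPKM on a log axis, wild type in blue and L2-fKO in red. In L2-fKO spleens the mast cell sum (38.9 to 291) stands above the basophil sum (5.77 to 32.6), while in wild-type spleens either sum can be the higher (9.53 and 31.7 in wild-type spleen 1, 35.4 and 20.7 in wild-type spleen 3). The organs were normalized separately.

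Of 3 ratios among the mast cell proteases, 1 separated the genotypes. The ratio of *Tpsb2* to *Cma1* in normalized counts was 1.18 to 1.36 in wild-type spleens and 1.69 to 2.81 in L2-fKO spleens, with no overlap, whereas that of *Mcpt4* to *Cma1* (2.00 to 3.16 and 2.80 to 3.67) and that of *Tpsb2* to *Tpsab1* (10.3 to 36.9 and 19.5 to 32.2) overlapped. Between the basophil proteases, the ratio of *Mcpt8* to *Prss34* was 0.707 to 0.870 in wild type and 0.867 to 1.10 in L2-fKO. The 2 tryptase transcripts share 15 stretches of 25 bases and none of 50 bases, and *Cma1* and *Mcpt4* share 3 of 25 and none of 50.

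In the ovary, a contrast that the choice of genes did not use, the mast cell proteases had lower means in L2-fKO, but none passed the limma test across all genes without a replicate block. The ovary values are the deposited normalized counts, and they were tested with limma on log2(value + 1), a scale that understates the change of low genes. *Cma1* had 577, 361 and 586 in wild-type ovaries 1 to 3 and 376, 127 and 252 in L2-fKO ovaries 1 to 3, with means of 508 ± 127 and 252 ± 124 (SD, n = 3 each). Its log2 fold change was -1.11 ± 0.38 (SE), with an adjusted p of 0.213 in limma, and the groups overlapped because L2-fKO ovary 1 exceeded wild-type ovary 2. *Mcpt4* had 585, 356 and 494 in wild type and 380.1, 155 and 235 in L2-fKO, a log2 fold change of -0.96 ± 0.33 (SE) with an adjusted p of 0.208 in limma.

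*Tpsb2* had 737, 493 and 787 in wild-type ovaries and 478, 231 and 279 in L2-fKO ovaries, with a log2 fold change of -1.07 ± 0.29 (SE) and an adjusted p of 0.133 in limma. *Cpa3* had 428, 293 and 473 in wild type and 282, 121 and 192 in L2-fKO, with a log2 fold change of -1.05 ± 0.32 (SE) and an adjusted p of 0.163 in limma. Both genes were lower in all 3 L2-fKO ovaries than in any wild-type ovary, and the exact permutation test gave p = 0.1 for each (two-sided, 3 against 3), the smallest this design allows. *Tpsab1* had 34.1, 22.6 and 68.8 in wild type and 27.7, 17.5 and 33.0 in L2-fKO, with a log2 fold change of -0.56 ± 0.45 (SE) and an adjusted p of 0.573 in limma.

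*Prss34* was the one basophil protease listed in the ovary, at 45.0, 36.8 and 41.3 in wild type (37 to 45 reads) and 17.0, 18.5 and 18.2 in L2-fKO (16 to 19 reads). It had the lowest adjusted p of the 8 genes, with a log2 fold change of -1.15 ± 0.25 (SE), an adjusted p of 0.0756 in limma and an exact permutation p of 0.1. Its L2-fKO values lay close together and below all wild-type values. *Ms4a2* had 20.7, 12.5 and 19.3 in wild type and 17.9, 7.19 and 13.7 in L2-fKO, a log2 fold change of -0.46 ± 0.41 (SE) with an adjusted p of 0.617 in limma. *Hdc* had 256, 199 and 173 in wild type and 249, 407 and 217 in L2-fKO, a log2 fold change of 0.44 ± 0.26 (SE) with an adjusted p of 0.445 in limma, and was the only one of the 8 with a higher L2-fKO mean.

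None of the 8 genes was called in the ovary by limma without a replicate block in either direction, where 0.730% of all 18504 genes tested were called higher and 0.227% lower. At an unadjusted p under 0.05, 5 of the 8 (*Prss34*, *Tpsb2*, *Cpa3*, *Mcpt4* and *Cma1*) were lower and 0 higher in limma, where 6.95% of all genes were lower and 9.88% higher at that level, and edgeR on the recovered reads also had 5 lower (6.78% of all genes) and called 0. DESeq2 on the recovered reads called 3 of the 8 lower, namely *Tpsb2* (adjusted p 0.00983), *Cpa3* (0.0267) and *Prss34* (0.0452), where it called 0.652% of all genes lower and 1.54% higher. With the replicate number as a block, limma called *Cma1*, *Tpsb2* and *Cpa3* lower, so the call in the ovary depended on the test and on the block. Over the 14 fits of the ovary data the adjusted p ranged from 0.00983 to 0.393 for *Tpsb2*, from 0.0267 to 0.435 for *Cpa3* and from 0.0452 to 0.276 for *Prss34*. The libraries did not overlap and were lower in L2-fKO for 3 of the 8 (*Tpsb2*, *Cpa3* and *Prss34*) and higher for 0, against 12.0% and 13.2% of all genes. The median log2 fold change was -1.01 over the 8 genes and -0.004 over all genes tested.

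**Figure D3:**
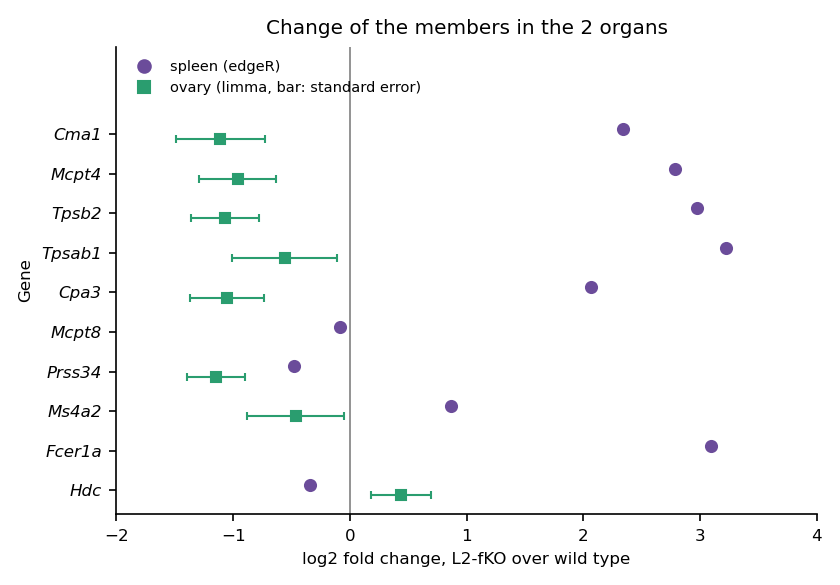
log2 fold change of L2-fKO over wild type for each of the 10 genes in the spleen (circles, edgeR) and the ovary (squares, limma, with bars of 1 standard error). The 5 mast cell proteases lie at 2.07 to 3.23 in the spleen and at -1.11 to -0.56 in the ovary, and *Mcpt8* and *Fcer1a* have no ovary value.

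The mast cell proteases had positive log2 fold changes in the spleen and negative ones in the ovary, and the difference between the organs was not tested because the spleen contrast chose the genes. Levels set across the organs come from tables normalized separately. In wild-type ovaries *Cma1* had 12.6 ± 3.19 RPKM, *Mcpt4* 11.7 ± 2.71, *Tpsb2* 11.4 ± 2.73 and *Cpa3* 7.10 ± 1.72 (mean ± SD, n = 3), and the first 3 of these differed by less than the larger SD. *Prss34* (0.908), *Hdc* (0.883), *Tpsab1* (0.543) and *Ms4a2* (0.168) followed. In L2-fKO ovaries the order was *Mcpt4* (6.13), *Cma1* (6.12), *Tpsb2* (5.47), *Cpa3* (3.47), *Hdc* (1.22), *Prss34* (0.392), *Tpsab1* (0.332) and *Ms4a2* (0.122), and the first 4 neighbours lay within each other's spread.

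The summed mast cell proteases came to 48.1, 31.5 and 50.3 RPKM in wild-type ovaries 1 to 3 and to 30.6, 13.2 and 20.8 in L2-fKO ovaries 1 to 3, while *Prss34* came to 0.8147 to 0.9767 and 0.3596 to 0.4078. In RPKM all 3 L2-fKO ovaries had a mast cell sum below that of every wild-type ovary, though L2-fKO ovary 1 was close to wild-type ovary 2. In normalized counts the sum was 1543 in L2-fKO ovary 1 and 1526 in wild-type ovary 2, so the groups overlapped. The ratio of *Mcpt4* to *Cma1* was 0.842 to 1.01 in wild-type and 0.932 to 1.22 in L2-fKO ovaries, below all 8 spleens. L2-fKO ovary 1 and L2-fKO spleen 3, which came from the same animal, stood at opposite ends of their groups, with the highest sum of the L2-fKO ovaries and the lowest of the L2-fKO spleens.

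The mast cell proteases varied together within each genotype, and so did the 2 basophil proteases in the spleen. After the log2 levels were centred on the mean of each genotype, the 10 pairs among the mast cell proteases had Pearson correlations of 0.77 to 0.99 over the 8 spleens (median 0.89) and of 0.51 to 0.99 over the 6 ovaries (median 0.94). *Mcpt8* and *Prss34* had a correlation of 0.99 over the spleens. Between mast cell and basophil proteases the correlations were lower, at 0.32 to 0.80 in the spleen (10 pairs, median 0.52) and 0.06 to 0.27 in the ovary (5 pairs, median 0.10). *Fcer1a* went with the basophil proteases (0.73 and 0.77) more than with the mast cell proteases (0.02 to 0.40). *Hdc* went with the mast cell proteases in the spleen (0.77 to 0.98) and against them in the ovary (-0.64 to -0.37). The points of each correlation share a library and its scaling. Without L2-fKO spleen 3 the correlations among the mast cell proteases were 0.72 to 0.99 (median 0.79) and that of *Mcpt8* with *Prss34* was 0.93, whereas those between mast cell and basophil proteases turned negative, at -0.56 to -0.09 (median -0.42, 7 libraries). Without L2-fKO spleen 4 the latter were 0.22 to 0.84 (median 0.48). The correlations of *Fcer1a* without L2-fKO spleen 3 were 0.12 and 0.27 with the basophil proteases and -0.95 to -0.77 with the mast cell proteases. The positive associations of the 2 families and of *Fcer1a* with the basophil proteases over all spleens thus rested on 1 library.

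**Figure D4:**
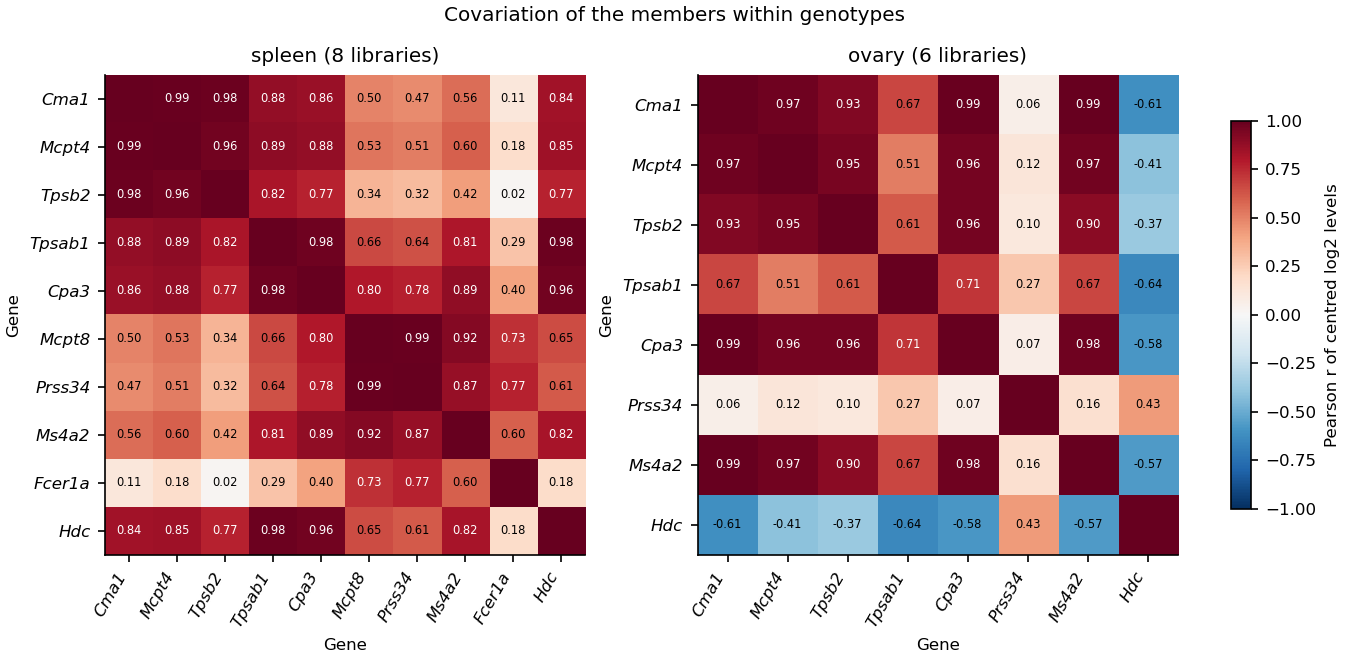
Pearson correlations between the genes, computed on log2 levels centred within each genotype, over 8 spleen libraries (left) and 6 ovary libraries (right). The mast cell proteases form a block of high values in both organs, the basophil proteases *Mcpt8* and *Prss34* correlate at 0.99 in the spleen, and *Hdc* is negative against the mast cell proteases in the ovary.

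Many other genes followed the mast cell proteases as closely over so few libraries. Of the 16911 genes tested in the spleen, 183 had a correlation above 0.9 with the mean of the 5 mast cell proteases, which itself contains those genes. The 8 non-members with the highest values were *Dusp27* (0.99), *Tril* (0.99), *Idh2* (0.99), *Emp2* (0.99), *Tpmt* (0.99), *Megf6* (0.99), *Grb10* (0.98) and *Lgr6* (0.98), and their log2 fold changes in L2-fKO lay between -0.33 and 0.66. Among the 50 closest genes were the members *Mcpt4*, *Cma1*, *Tpsb2* and *Tpsab1*, the complement receptor gene *C5ar1* and *Mrgprb1*, a receptor gene of the mast cell Mrgpr family. Between genotypes *C5ar1* went the other way, with a log2 fold change of -0.80. In the ovary 381 of 18504 genes had a correlation above 0.9. The 50 closest there held the members *Cpa3* and *Cma1* and 0 of the other mast cell and basophil genes listed below.

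The protease genes other than *Cpa3* sit in clusters by family. On GRCm38, *Cma1* (chr14:55941451-55944675), *Mcpt4* (chr14:56059629-56062313) and *Mcpt8* (chr14:56082166-56085273) lie on the minus strand of the chymase and granzyme locus. *Prss34* (chr17:25298394-25300165, plus strand), *Tpsab1* (chr17:25343245-25345562, minus strand) and *Tpsb2* (chr17:25366305-25369098, plus strand) lie in the tryptase locus. Each locus held genes that were high in L2-fKO spleen (*Cma1* and *Mcpt4*, or *Tpsab1* and *Tpsb2*) beside a basophil protease gene that was not (*Mcpt8* or *Prss34*). The other 4 genes are not near each other or these loci, with *Cpa3* at chr3:20215620-20242181, *Ms4a2* at chr19:11615523-11623719, *Fcer1a* at chr1:173221284-173227214 and *Hdc* at chr2:126593667-126619299, each on the minus strand.

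The 3′UTRs of the 10 genes were searched for the AU-rich letters that ZFP36 family proteins are known to bind, because L2-fKO mice lack ZFP36L2. In the longest 3′UTR that GENCODE M21 gives for each gene, UAUUUAU was absent from all 10, while 29.7% of the 14192 genes tested in the spleen with a 3′UTR held it. The shorter AUUUA, which lies within UAUUUAU, was present in 2 of the 10 (1 match in *Cpa3* and 3 in *Ms4a2*), against 69.3% of genes tested. The 3′UTRs of the 10 genes were short, with a median of 250.0 bases, from 82 in *Mcpt8* and 203 in *Cma1* to 1601 in *Tpsab1* and 1950 in *Ms4a2*, against a median of 1161 bases over the genes tested. The absence of these letters in the annotated 3′UTR says nothing of binding elsewhere. The 4 windows with AUUUA are shown with that motif in capitals, as RNA from 5′ to 3′. In the *Cpa3* window and the last *Ms4a2* window the motif follows a U, so that only the last letter of UAUUUAU differs. In the gel shifts of the study, probes with a single AUUUA and no UAUUUAU did not bind ZFP36L2.
*Cpa3*, chr3:20215654-20215683, minus strand: cuucuuguuucuAUUUAcucccaacagccc
*Ms4a2*, chr19:11617137-11617166, minus strand: auuacccugagaAUUUAacuaaccuuagau
*Ms4a2*, chr19:11615813-11615842, minus strand: aaggcucgccucAUUUAcauccgucucucc
*Ms4a2*, chr19:11615691-11615720, minus strand: uaaaucagaguuAUUUAacuugauauuugu

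Mast cells and basophils both depend on the transcription factor GATA2, so the promoters were searched for GATA letters. RefSeq promoter sequences (GRCm38.p6, 250 bases before to 50 after the start) were given for 8 of the 10 genes, all but *Tpsb2* and *Tpsab1*. The letters searched were AGATAA and its variant AGATAG, and starting with another base TGATAA and its variant TGATAG, on either strand and with none contained in another. At least 1 match occurred in 7 of the 8 (*Cma1*, *Mcpt4*, *Cpa3*, *Prss34*, *Ms4a2*, *Fcer1a* and *Hdc*, but not *Mcpt8*), and in 29.8% of all 32851 promoters of this length. *Ms4a2* held 3 matches, and 7.77% of all promoters held 2 or more. The letters were found both in genes that were high in L2-fKO spleen and in genes that were not, and a match is a description of the letters, not of a bound site. For each of the 7 genes the window of the match nearest to the start is shown 5′ to 3′ on the strand of the gene, with the GATA letters or their reverse complement in capitals.
*Cma1*, chr14:55944737-55944766, minus strand: acagttgaggacCTATCTgagtatctggga
*Mcpt4*, chr14:56062396-56062425, minus strand: catgagaatttcTGATAAggaaagtagagc
*Cpa3*, chr3:20242210-20242239, minus strand: agctgttcgtcgAGATAAaagctgaggtat
*Prss34*, chr17:25298351-25298380, plus strand: cctgtggaagaaAGATAAatgggaccctgg
*Ms4a2*, chr19:11623713-11623742, minus strand: ggttccgcatgaAGATAAtcattggtattc
*Fcer1a*, chr1:173227304-173227333, minus strand: acaaccctattaTTATCTctggagaaagcc
*Hdc*, chr2:126618882-126618911, minus strand: caggggcagggaTGATAGagggctctttta

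Beyond the 10 genes, 88 others of mast cell and basophil biology were taken from 7 lists (receptors, granule storage and lipid mediators, transcription factors, growth factors and cytokines, IgE receptor signalling, and the chymase and tryptase loci). In the spleen 67 of them were tested and edgeR called 7 higher and 5 lower in L2-fKO, with a median log2 fold change of -0.09, where 2.90% and 3.11% of all genes were called. The libraries did not overlap for 12 higher and 12 lower, against 9.61% and 10.8% of all genes.

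The genes that rose included further proteases of the chymase locus. *Mcpt2*, a chymase of mucosal mast cells, had a mean of 39.96 ± 9.50 in wild-type and 336 ± 175 in L2-fKO spleens (SD, n = 4 each), with a log2 fold change of 3.07 ± 0.50 (SE) and an adjusted p of 0.00401 in edgeR. *Mcpt1*, its mucosal neighbour, had 18.2 to 43.4 in wild type and 51.1 to 179 in L2-fKO, a log2 fold change of 2.05 and an adjusted p of 0.00981 in edgeR, and *Gzmb*, a granzyme of cytotoxic lymphocytes and mast cells, had 47.7 to 66.7 and 112 to 391, a log2 fold change of 1.74 and an adjusted p of 0.0216 in edgeR. In all 3 genes every L2-fKO spleen was above every wild-type spleen. Of the locus list of 12 genes only 4 passed the filter, and in the tryptase locus list of 8 only 1 did.

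Among receptors, *Mrgprb1* rose (2.83 to 28.8 in wild type, 43.5 to 289 in L2-fKO, log2 fold change 3.36 ± 0.68 SE, adjusted p 0.0113 in edgeR), as did the prostaglandin receptor gene *Ptger3* (216 to 301 and 391 to 1033, log2 fold change 1.42, adjusted p 0.00838 in edgeR). *Mrgprb1* passed the filter on low counts only through the L2-fKO spleens, where it is high, and was not fitted under the stricter filter. Its call is therefore read as a description. *Kit*, the receptor on which mast cells depend but which blood progenitors also carry, fell from 2660.1 ± 202 to 965 ± 253 (SD, n = 4 each), a log2 fold change of -1.46 ± 0.18 (SE) with an adjusted p of 0.000832 in edgeR. *Ccr3*, a chemokine receptor gene of eosinophils and basophils, fell by 1.03 on the log2 scale (adjusted p 0.0297 in edgeR). The IgE receptor gamma chain gene *Fcer1g* (log2 fold change -0.36, adjusted p 0.285), the IL-33 receptor gene *Il1rl1* (-0.09, 0.832) and *Mrgprb2*, the mast cell receptor for basic secretagogues (1.94, 0.133), were not called in edgeR.

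Of the growth factors and cytokines, *Il33*, an alarmin that acts on mast cells, had 346 to 524 in wild type and 1404 to 1508 in L2-fKO spleens, with a log2 fold change of 1.76 ± 0.14 (SE) and an adjusted p of 7.24e-05 in edgeR. *Kitl*, the KIT ligand, had 3327 to 4595 and 6919 to 9133, with an adjusted p of 0.00249 in edgeR and a log2 fold change of 0.97, just under the limit of 1. The *Il33* and *Kitl* values did not overlap between genotypes. *Il6* rose by a log2 fold change of 1.97 from very low counts (1.99 to 5.05 in wild type, 10.2 to 25.0 in L2-fKO, adjusted p 0.0159 in edgeR). It passed the filter on low counts only through the L2-fKO spleens, was not fitted when any of them was left out or under the stricter filter, and was not called in males only (log2 fold change 1.33, adjusted p 0.0999 in edgeR).

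Of the granule and lipid mediator genes, *Rab27b*, which tethers secretory granules, fell from 1036 to 1361 in wild type to 77.1 to 147 in L2-fKO (log2 fold change -3.40 ± 0.22 SE, adjusted p 1.86e-05 in edgeR), and *Alox5ap*, which serves leukotriene synthesis, fell by 1.55 on the log2 scale (adjusted p 0.00457 in edgeR). *Lat*, an adaptor of receptor signalling in mast cells, T cells and platelets, fell by 1.10 on the log2 scale (adjusted p 0.039 in edgeR). Of the 11 transcription factor genes 0 were called by edgeR or DESeq2. At an unadjusted p under 0.05 there were 6 in either tool, against 29.0% of all genes in edgeR and 30.3% in DESeq2. *Stat5a* (log2 fold change -0.75, adjusted p 0.00175 in edgeR), *Runx1* (-0.41, 0.0218) and *Stat5b* (-0.34, 0.0389) were lower at an adjusted p under 0.05 but short of the limit on the log2 fold change. In the other lists, besides *Kitl*, *Csf2rb* (0.95, 0.00967 in edgeR), *Enpp3* (0.87, 0.00825), *Csf2rb2* (0.83, 0.0490) and *Gab2* (0.74, 0.00841) were higher in this way. *Slc18a2* (-0.72, 0.0457 in edgeR) and *Il3ra* (-0.66, 0.0364) were lower. Of all 16911 genes tested, 2267 had an adjusted p under 0.05 in edgeR. *Gata2*, a factor on which both cell types depend, had a log2 fold change of 0.55 (adjusted p 0.116 in edgeR). *Ccr3* and *Lat* were not called without L2-fKO spleen 1, 2 or 3 or without wild-type spleen 1, 2 or 4. Each of these fits left 3 of the 65 to 67 listed genes tested called lower, and 328 to 451 over all genes, against 526 with all libraries. Without L2-fKO spleen 4 *Ccr3* was not called (log2 fold change -0.87). *Gzmb* was not called without wild-type spleen 2 or 4 (adjusted p 0.0578 and 0.0753), with sex as a covariate (0.0519) or in males only (0.0618), and its log2 fold change was 1.13 without L2-fKO spleen 4 (adjusted p 0.00760 in edgeR).

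**Figure D5:**
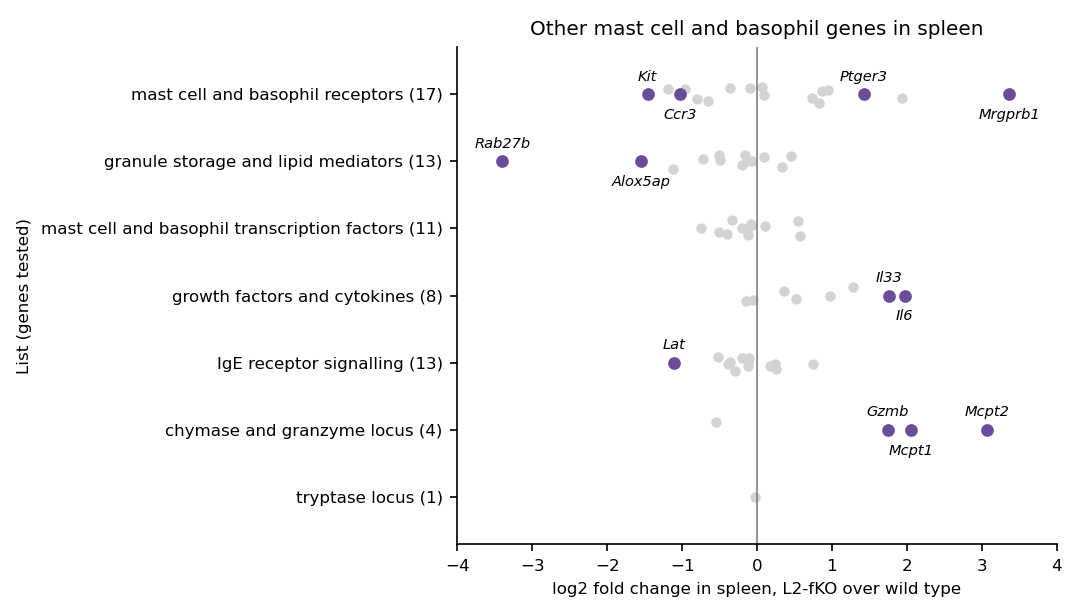
log2 fold change in the spleen (L2-fKO over wild type) of the 67 other mast cell and basophil genes tested, by list, with called genes in purple and named, and the other genes in grey and spread vertically for legibility. Called genes lie on both sides of 0, with the 3 called genes of the chymase and granzyme locus all at 1.74 or more.

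In the ovary 58 of the 88 genes were tested and limma called 0 in either direction, with 9 higher and 3 lower at an unadjusted p under 0.05, against 9.88% and 6.95% of all genes. On the recovered reads edgeR also called 0 and DESeq2 called 1, *C5ar1* (adjusted p 0.0346). *Kit* had a log2 fold change of 0.55 ± 0.23 (SE) and an adjusted p of 0.288 in limma, *Kitl* -0.11 (0.615), *Il33* 0.60 (0.164) and *Il1rl1* -0.75 (0.145), and *Gata2* -0.04 (0.965). *Mrgprb1* and *Mrgprb2* had lower means in L2-fKO ovaries (log2 fold changes of -0.74 and -0.68, adjusted p 0.531 and 0.505 in limma). The libraries did not overlap for 17 higher and 4 lower, against 13.2% and 12.0% of all genes, and the median log2 fold change was 0.15.

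Markers of some other blood cells moved with genotype in the spleen and stand beside the changes above. All 10 megakaryocyte and platelet markers were called lower, with a summed level of 797 to 1409.9 CPM in wild type and 70.9 to 78.0 in L2-fKO. All 10 neutrophil markers (3865.5 to 6647 and 232 to 1469) and 6 of 8 eosinophil markers (317 to 763 and 19.9 to 69.0) were also called lower. Over all genes tested edgeR called 3.11% lower and 2.90% higher. None of the 7 erythroid, 5 B cell, 5 T cell and 6 splenic macrophage markers was called. The log2 fold changes of all 5 B cell markers were below 0 and those of all 6 macrophage markers above 0. Of 9 fibroblast markers, *Lum*, *Pdgfra* and *Pdgfrb* were called higher (summed 1156 to 1382 and 1321 to 2140.0), and 4 of 5 pancreatic acinar markers tested were called lower (39.8 to 594 and 32.9 to 45.8). The oocyte gene *Ddx4* and the granulosa cell gene *Inhba* were called lower at summed levels of their lists under 5 CPM. *Rab27b*, *Kit* and *Lat* are also expressed in megakaryocytes or platelets, *Alox5ap* in neutrophils and *Ccr3* in eosinophils. The part of these cells in the results given here was not tested. In the ovary the T cell gene *Cd4* was the only marker called by limma, and it was higher in L2-fKO. Among marker lists without a call there, all 5 adipocyte markers tested had log2 fold changes below 0 (summed 40.5 to 64.2 CPM in wild type and 11.7 to 51.6 in L2-fKO), as did all 6 granulosa cell markers (1495 to 1829 and 634 to 1632) and all 5 neutrophil markers tested (1.78 to 8.02 and 1.15 to 2.82). The pancreatic acinar sum was lower without overlap (43.0 to 50.7 and 23.2 to 26.5), and all 6 splenic macrophage markers had log2 fold changes above 0, with a sum that did not overlap (36.2 to 47.5 and 57.3 to 75.3). Their part in the ovary values of the proteases was not tested.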

How the data were processed

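Poly(A) RNA-seq of 8 spleens and 6 ovaries was used. For the spleen the authors deposited whole-number counts per gene, made with Trimmomatic 0.36, STAR 2.5.2b and featureCounts of Subread 1.5.2 on GRCm38. For the ovary the authors deposited a signal per gene, the count divided by 1 size factor per library, beside their own fold changes and p-values, which were not used. The ovary steps are whole reads for 100.0% of values within 0.001 reads, so read counts were recovered from this signal.

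Spleen genes reaching 10 counts in 4 or more libraries were fitted with edgeR 4.0.16 (quasi-likelihood, TMM) under R 4.3.3, and ovary genes reaching a value of 10 in 3 or more libraries with limma 3.58.1 (trend) on log2(value + 1). The call needed an adjusted p under 0.05 (Benjamini-Hochberg, over all genes tested) and a log2 fold change beyond 1 in either direction. DESeq2 1.42.0, other scalings, filters, pseudocounts and covariates, and fits without each library were the alternatives. The fits were checked on simulated data in which 200 genes changed, of which edgeR recovered 200 in the spleen with 8 false calls and limma 197 in the ovary with 7. DESeq2 recovered 195 in the ovary with 16 false calls. The simulation gave all genes the same relative spread beyond counting error and changed only well-covered genes. It therefore does not show how the fits perform for genes with few reads or with a large spread between animals. Permutation tests, correlations and motif searches used Python 3.11.15 with pandas 2.3.3, numpy 2.4.6 and scipy 1.17.1. Correlations without single libraries were added after seeing the data.

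The members and the lists were chosen with earlier results of these data known. Named genes were all members, every listed gene called in either organ (at most 6 a list), *Kit*, *Gata2*, *Fcer1g*, *Il1rl1*, *Mrgprb2* and *Kitl*, and the 8 genes most like the mast cell proteases. *C5ar1* and *Mrgprb1* among the 50 closest genes were named after their values were seen. So were *Stat5a*, *Stat5b*, *Runx1*, *Csf2rb*, *Enpp3*, *Csf2rb2*, *Gab2*, *Slc18a2* and *Il3ra*. Pairs of libraries of 1 group differed beyond counting error (chi-square over its degrees of freedom at least 7.84). The replicate numbers of the labels did not consistently pair the spleen libraries, whereas 5 of the 6 ovaries correlated best with the ovary of their own number. The ovary calls are therefore given with and without a replicate block. The p-values of the fits weigh the group difference against the spread between these animals, 4 against 4 or 3 against 3, estimated with information from all genes. Genes with few reads are known with little precision at these depths.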

Additional observations from a re-analysis of the deposited data

Results flagged for a closer look

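For all 5 mast cell proteases every L2-fKO spleen lay above the wild-type spleen mean and every L2-fKO ovary below the wild-type ovary mean. The log2 fold change in the spleen minus that in the ovary was 3.45 for *Cma1*, 3.75 for *Mcpt4*, 4.04 for *Tpsb2*, 3.78 for *Tpsab1* and 3.12 for *Cpa3*. This difference was not tested, the organs were normalized separately, the spleens are mixed in sex while the ovaries are female, and the spleen contrast chose the genes.

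*Hdc* in wild-type spleen 3 had a normalized count of 624, against 352 to 382 in the other 3 wild-type spleens, and stood apart from them by Dixon's test. This library also had the highest wild-type counts of *Cma1*, *Mcpt4*, *Tpsb2*, *Tpsab1* and *Cpa3*. It was 1 of 20 groups of 4 spleens so examined, and chance marks about 1 group in 20.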

How the results depend on the processing

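The log2 fold changes of *Cma1*, *Mcpt4*, *Tpsb2*, *Tpsab1*, *Cpa3*, *Fcer1a*, *Ms4a2* and *Prss34* kept their sign in the spleen under every alternative fitted, and all 8 members kept theirs in the ovary. Those of *Hdc* and *Mcpt8* in the spleen crossed 0, at -0.67 to 0.09 and -0.54 to 0.31. The members called higher in the spleen numbered 4 to 7 over the alternatives. In males only, 11 other mast cell and basophil genes were called higher in the spleen, against 7, and over all 16911 genes tested 713 were called higher, against 490. Leaving out 1 library gave 328 to 659 genes called lower in the spleen, against 526, and 3 to 6 other mast cell and basophil genes, against 5. In the ovary it gave 26 to 115 genes called higher, against 135, and 3 to 71 lower, against 42, and 0 members. DESeq2 on the recovered ovary reads called 286 genes higher and 121 lower, 3 members lower and 1 gene of the other lists, the complement receptor gene *C5ar1*, higher. The cause of these differences was not tested.

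Libraries with the same replicate number did not deviate together in every pair (correlations of -0.14 to 0.18 in the spleen and 0.07 to 0.38 in the ovary), and in the spleen 2 wild-type libraries carry the number 3. With the numbers as a replicate block, 4 members were called higher in the spleen (*Cma1* and *Cpa3* were not called), and in the ovary 81 genes were called lower and 3 members, *Cma1* (adjusted p 0.0395), *Tpsb2* (0.0368) and *Cpa3* (0.0398) in limma. Of the 6 ovaries, 5 correlated best with the ovary of their own number, and wild-type ovary 3 correlated best with L2-fKO ovary 2 (0.18, against 0.07 with its own number).

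*Tpsab1* and *Fcer1a* in wild-type spleen rest on 4 to 18 reads per library, and *Prss34*, *Ms4a2* and *Tpsab1* in the ovary on 7 to 75, so their levels are measured with few reads. Among the members in the ovary, the SE of the log2 fold change was largest for *Tpsab1* (0.45) and *Ms4a2* (0.41) and smallest for *Prss34* (0.25). *Mcpt8* and *Fcer1a* were not analysed in the ovary. Age, sex and genotype cannot be fully told apart with 1 female L2-fKO spleen, and the cell numbers behind the values are unknown.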
